A study of Mus musculus with 12 samples.

Results

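The genes described are 32 that act at or just below the T cell antigen receptor, from the CD3 chains to the kinases, adaptors, second-messenger enzymes, transcription factors and brakes that the receptor works through. They were taken by symbol from the annotated array table, and 31 of them were measured, out of 19938 genes with a named row. Each of the 31 had 1 row, and Lck is not analysed here. RNA came from CD8+CD28low regulatory T cells, a CD8 T cell subset named for a low level of the costimulatory receptor CD28, from C57Bl/6 mice. It was read on 12 whole-transcript arrays, 3 for each of 4 groups. Native WT (genotype wt) and native KO (AIRE ko) cells were freshly isolated. Activated WT and activated KO cells of the same genotypes had spent 96 h in culture with anti-CD3 antibody and allogenic antigen-presenting cells (APC). Freshly isolated cells were not cultured, so culture and stimulation cannot be told apart in the comparison of states. The number of mice per array and the means of sorting are not in the labels, so the p-values measure the spread between these arrays.

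When the receptor meets its antigen, the kinase Lck, held at the CD8 co-receptor, phosphorylates the CD3 and zeta chains, and the kinase Zap70 binds there. Zap70 then marks the scaffold Lat and the adaptor Lcp2, on which phospholipase C gamma, Vav1 and the adaptor Grap2 gather. The products of the phospholipase open calcium entry for the NFAT factors, recruit Rasgrp1 to switch on Ras, and activate the kinase Prkcq, which signals to NF-kappaB through Bcl10 and Malt1. Phosphatases, the kinase Csk, the receptors Cd5 and Cd6 and ubiquitin ligases such as Cblb hold the signal down.

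None of the 31 genes lay at background in any group, where background means that all 3 arrays were at or under the 95th percentile of 1027 olfactory receptor genes on the same array. Array 3 of activated KO stood apart from the rest. Its olfactory receptor median was 6.34 on the log2 scale, against 5.49 to 5.95 on the other 11 arrays. It was the lowest of the 3 activated KO arrays for 31 of 31 members (42.3% of all genes) and the lowest of all 12 arrays for 27 (24.1% of all genes). The median member lay 0.64 below the mean of the other activated KO arrays there (a deviation of -0.64), where the median gene deviated by 0.05. The scale of this array was narrower, with an interquartile range of 2.19 against 2.45 to 2.89 on the other 11 arrays. The members are bright, with a mean of 10.12 on this array against an array median of 6.44. All genes are thus mostly dimmer than the members, and whether other bright genes deviated as far was not tested. The part of this array's quality in the results was not tested, and the members' differences on activation are given with and without it. Aire itself lay at background in all 4 groups, so the array gives no check of the genotype labels. Of the helper T cell markers Cd4 and Cd40lg lay at background in all groups, while Zbtb7b lay at background in native cells only and rose by 1.91 ± 0.29 in WT (limma, adjusted p = 0.000644) and 1.41 in KO (0.00475). Cd28 ran from 9.98 to 11.97 over the 12 arrays and lay above background in all 4 groups. Its RNA was thus readily detected in cells named CD28low, and no cells with more CD28 were measured beside them. In activated cells 10 of 10 neutrophil markers, 9 of 9 macrophage markers and 7 of 9 B cell markers were at background, as were 3 of 6 MHC class II genes and 2 of 7 NK cell markers. H2-Ab1, an MHC class II chain, read 8.92, 9.08 and 9.60 in activated WT and 8.41, 9.95 and 5.64 in activated KO. It rose by 3.33 ± 0.85 in WT (limma, adjusted p = 0.015) and differed by 1.27 in KO, which was not called. H2-Aa, H2-Eb1 and Cd74 were called lower in KO (-1.14, -0.75 and -1.92), the NK cell receptor Klra8 in both genotypes (-1.02 in WT and -1.44 in KO) and Ncr1 in KO (-1.69). Other NK cell markers went the other way: 3 of 7 lay above 0 in WT and 4 in KO, with none called higher. The largest of these differences were those of Fcer1g, at 1.23 in WT and 0.99 in KO. The NK cell markers averaged 8.14, 7.85 and 8.34 on activated KO arrays 1, 2 and 3. The part of these cells in the members' values was not tested. In native cells 10 neutrophil markers averaged 5.45 to 6.67 on the WT arrays and 5.97 to 8.21 on the KO arrays. All 9 measured proliferation genes rose after activation in both genotypes (limma, adjusted p under 0.05).

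**Figure D1:**
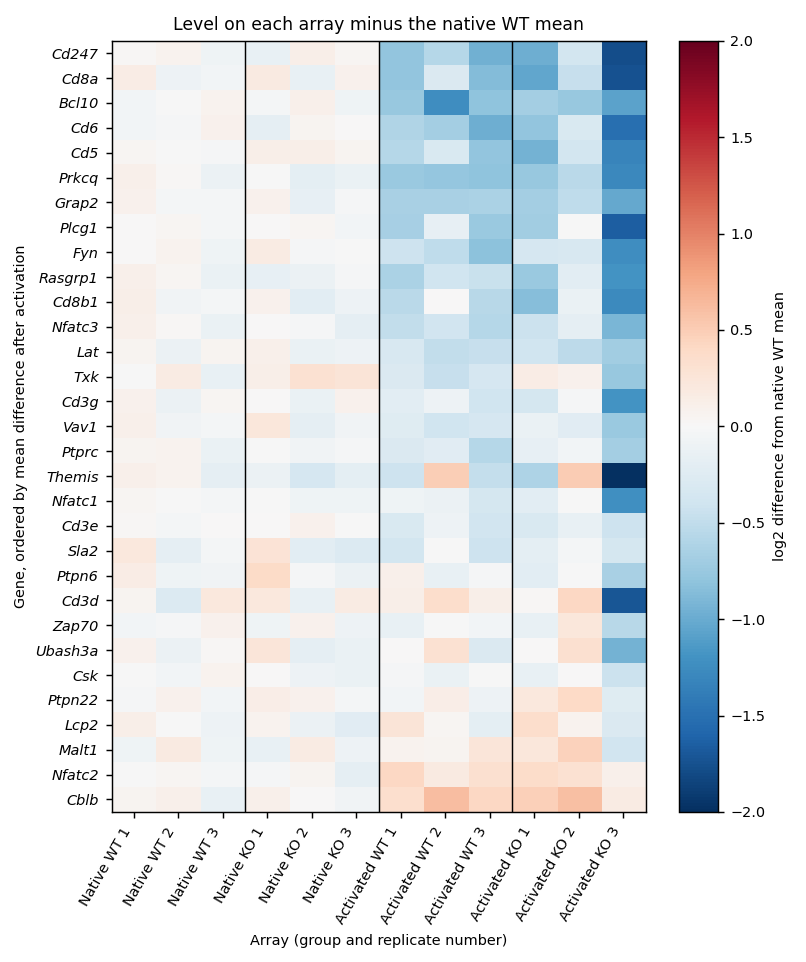
Level of the 31 genes (rows, ordered by their mean difference after activation) on each of 12 arrays (columns, labelled by group and replicate number), as the log2 difference from the native WT mean. Blue is lower and red is higher, and the scale ends at 2 in each direction. The native columns are pale, the activated columns are mostly blue, and array 3 of activated KO is the darkest column.

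The comparison of activated with native cells asked how the signalling machinery stood after stimulation. In WT cells Bcl10, Prkcq, Cd6, Grap2 and Lat fell and Cblb rose. In KO cells the same 5 genes fell, together with Cd8a, Cd247, Cd5, Fyn and Rasgrp1, and 0 rose. Levels were tested in 1 limma fit over all 12 arrays, with the Benjamini-Hochberg adjustment over 19938 genes and a call at an adjusted p under 0.05. The 5 falls and 1 rise in WT stood against 10.9% of all genes called lower and 9.72% called higher, and the 10 falls and 0 rises in KO against 11.4% and 8.72%. These shares include genes at background, where no member lay in any group. With only the 10545 genes above the background limit on at least 3 arrays, 8 members were called lower in WT and 11 in KO. The shares of those genes were 21% and 22.1%. In that fit 1 and 0 members were called higher, against 19% and 16.9%. At an unadjusted p under 0.05 there were 15 of 31 members in WT and 17 in KO, in either direction. Of all 19938 genes, 6054 and 5945 had such a p. Cblb and Nfatc2 were the members among these that were higher, in each genotype. The 5 genes called lower in both genotypes compared with 9.31% of all genes. The median member differed by -0.32 in WT and by -0.44 in KO, where the medians of all genes were -0.02 and 0.02. Of the 31 members 25 lay below 0 in WT and 26 in KO, against 10762 and 9187 of all 19938 genes.

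The arrays were also read with no model, and the shares of all genes given here again include genes at background. On all 6 activated arrays 11 members lay below all 6 native arrays, against 13.3% of all genes: Cd3e, Cd247, Cd8a, Fyn, Lat, Prkcq, Cd5, Cd6, Bcl10, Rasgrp1 and Grap2. Nfatc2 and Cblb lay above on all 6, against 9.21% of all genes. Within WT, 17 members had all 3 activated arrays below all 3 native ones, against 23.4% of all genes, and 2 had them above, against 17.5%. Within KO the counts were 11, against 17% of all genes, and 2, against 13.8%. Without array 3 of activated KO, the limma fit called 15 members lower and 2 higher in WT, against 16.1% and 13.3% of all genes, and 9 lower and 2 higher in KO, against 11.1% and 13.4%. The fit shares its estimate of spread over the groups, and so the WT calls moved as well. Without array 2 of activated KO it called 10 members lower in WT, against 11.9% of all genes, and 15 in KO, against 13.5%. The count in WT was 3 without native WT array 1, native WT array 3 or activated WT array 3, where 7.22%, 8.52% and 7.99% of all genes were called lower. The count in KO was 6 without native KO array 2 or native KO array 3, where the shares were 8.02% and 8.49%.

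**Figure D2:**
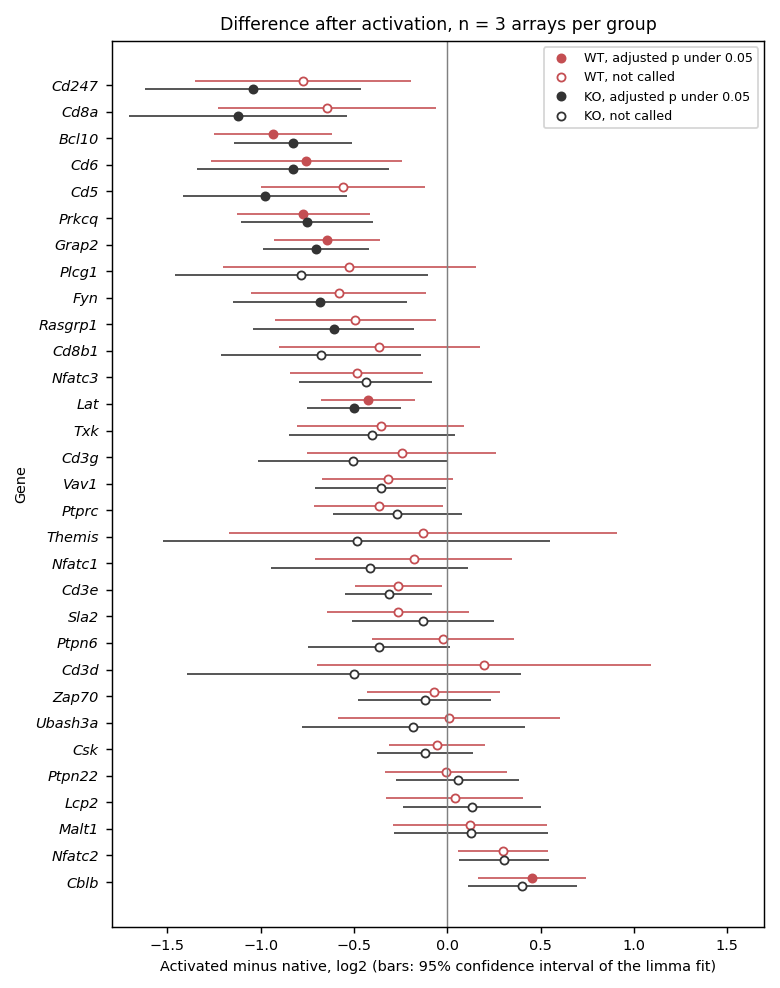
Difference between activated and native cells for the 31 genes, in log2 units, with the 95% confidence interval of the limma fit (3 arrays per group). Red marks WT and black marks KO, and filled points passed an adjusted p of 0.05. Most points lie left of 0, and in WT the filled points are Bcl10, Cd6, Prkcq, Grap2 and Lat to the left and Cblb to the right.

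The CD3 chains and zeta (Cd247) form the signalling part of the receptor, and they differed in how far they moved. Cd247 carries most of the receptor's signalling motifs. On arrays 1, 2 and 3 its log2 level was 10.53, 10.58 and 10.42 in native WT and 10.37, 10.62 and 10.55 in native KO. Activated cells gave 9.72, 9.94 and 9.55 (WT) and 9.53, 10.14 and 8.74 (KO), so that every activated array lay below every native one. The difference was -1.04 ± 0.26 in KO (SE, n = 3 per group; limma, adjusted p = 0.0156) and -0.77 ± 0.26 in WT (adjusted p = 0.0605, not called). Without array 3 of activated KO the KO value was -0.68 (adjusted p = 0.0132) and the WT value passed (adjusted p = 0.0025). The KO call was lost without native KO array 2 (adjusted p = 0.0596) or array 3 (0.0529). Cd3e, which pairs with the other CD3 chains, moved less, from 12.79 to 12.85 on native WT arrays to 12.43 to 12.72 on activated WT arrays. Its differences of -0.26 ± 0.11 in WT and -0.32 ± 0.11 in KO did not pass, though the native and activated arrays did not overlap. The KO value of Cd3e was -0.25 without array 3 of activated KO, and it passed without activated KO array 2 (-0.38, adjusted p = 0.0371) or activated WT array 2 (0.0405), as did the WT value without activated WT array 2 (-0.34, adjusted p = 0.0475).

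Cd3g differed by -0.24 ± 0.23 in WT and -0.51 ± 0.23 in KO, neither called. Cd3d differed by 0.20 ± 0.41 in WT and -0.50 ± 0.41 in KO. The KO value of Cd3d rests on 1 array: its activated KO levels were 10.79, 11.18 and 9.06, and without the last the difference was 0.14 (adjusted p = 0.623). For Cd3g the same step gave -0.17 (adjusted p = 0.408), while without activated KO array 2 its KO value was -0.75 and passed (adjusted p = 0.0239).

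The co-receptor chains Cd8a and Cd8b1 bring Lck to the receptor by binding MHC class I. Cd8a read 12.67, 12.42 and 12.46 in native WT and 12.70, 12.37 and 12.60 in native KO. It read 11.72, 12.23 and 11.66 in activated WT and 11.48, 12.06 and 10.77 in activated KO. Activated arrays were all lower than native ones, with array 2 the highest in each activated group. The fall in KO was -1.12 ± 0.27 (SE, n = 3 per group; limma, adjusted p = 0.0111), or -0.79 (adjusted p = 0.0142) without array 3 of activated KO. In WT the difference was -0.65 ± 0.27 (adjusted p = 0.12, and 0.0182 without array 3 of activated KO). Cd8b1 differed by -0.36 ± 0.25 in WT and -0.68 ± 0.25 in KO, and neither passed. Its KO value was -0.42 (adjusted p = 0.205) without array 3 of activated KO and -0.99 (adjusted p = 0.00341) without array 2. In these bulk RNA samples fewer cells with a transcript and less of it per cell cannot be told apart.

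Among the kinases that start the cascade, Fyn fell in KO and Zap70 was not called. Fyn, a Src family kinase that works beside Lck, read 11.12, 11.18 and 11.02 in native WT and 10.70, 10.59 and 10.29 in activated WT. The KO arrays read 11.27, 11.09 and 11.11 in native cells and 10.77, 10.79 and 9.86 in activated cells. All 6 activated arrays were lower, with a difference of -0.68 ± 0.21 in KO (SE, n = 3 per group; limma, adjusted p = 0.0424) and -0.58 ± 0.21 in WT (adjusted p = 0.0794). The KO call was held in 4 of 12 fits that left out 1 array, and was lost without any of the 6 native arrays or activated WT arrays 1 and 2, with an adjusted p of up to 0.134. Without array 3 of activated KO the value was -0.38 in KO (adjusted p = 0.0464), and the WT difference then passed (0.0019). Zap70, the kinase that binds the phosphorylated CD3 and zeta chains, differed by -0.07 ± 0.16 in WT and -0.12 ± 0.16 in KO, with 95% intervals from -0.43 to 0.28 and from -0.48 to 0.24, and its KO value was 0.08 without array 3 of activated KO. Txk, a Tec family kinase, differed by -0.36 ± 0.20 and -0.40 ± 0.20 and was not called. Without the same array its KO value was -0.11 (adjusted p = 0.565) and its WT value passed (0.0188). Csk, which restrains the Src family kinases, differed by -0.05 ± 0.12 and -0.12 ± 0.12, with 0.0011 in KO without that array, and was not called. Ptprc (CD45), the phosphatase that keeps those kinases ready, differed by -0.37 ± 0.16 in WT and -0.27 ± 0.16 in KO, and neither was called. Its KO value was -0.08 (adjusted p = 0.709) and its WT value passed (0.0215) without array 3 of activated KO.

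The scaffold Lat and the adaptor Grap2 fell in both genotypes. Lat read 12.03, 11.86 and 12.03 in native WT and 11.65, 11.48 and 11.51 in activated WT. It read 12.08, 11.84 and 11.87 in native KO and 11.58, 11.44 and 11.27 in activated KO. Activated and native arrays did not overlap in either genotype, with differences of -0.42 ± 0.12 in WT (SE, n = 3 per group; limma, adjusted p = 0.0216) and -0.50 ± 0.12 in KO (adjusted p = 0.00938; -0.42 and 0.0154 without array 3 of activated KO). In WT the call was lost without native WT array 1 (adjusted p = 0.0845) or 3 (0.0791), or activated WT array 2 (0.0584) or 3 (0.0739).

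Grap2 (Gads) is the adaptor that links Lcp2 to Lat. It read 11.30, 11.17 and 11.19 in native WT and 10.57, 10.57 and 10.58 in activated WT, where the 3 arrays had an SD of 0.01. Native KO cells gave 11.31, 11.05 and 11.20 and activated KO cells 10.54, 10.71 and 10.19. The differences were -0.65 ± 0.13 in WT (SE, n = 3 per group; limma, adjusted p = 0.00405) and -0.71 ± 0.13 in KO (adjusted p = 0.00249; -0.56 without array 3 of activated KO), and both calls were held in 12 of 12 fits that left out 1 array. Lcp2 (SLP-76), the partner of Grap2, was not called, at 0.04 ± 0.17 in WT and 0.13 ± 0.17 in KO, or 0.30 in KO without that array. Vav1, an exchange factor that acts on the cytoskeleton, differed by -0.32 ± 0.16 and -0.36 ± 0.16, with no call. Its KO value was -0.17 (adjusted p = 0.385) and its WT value passed (0.0496) without array 3 of activated KO. Themis, a T cell adaptor needed in thymic selection, differed by -0.13 ± 0.47 and -0.49 ± 0.47, with no call. It had the widest error of all members: its activated KO arrays read 10.31, 11.43 and 8.93, and without the last the KO difference was 0.16 (adjusted p = 0.784).

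Plcg1, which makes the second messengers of the receptor, read 10.49 to 10.57 on native WT arrays and 9.87, 10.36 and 9.79 on activated WT arrays. In KO it read 10.48 to 10.58 in native cells and 9.84, 10.53 and 8.89 in activated cells, so that 1 activated KO array lay within the native range. The differences of -0.52 ± 0.31 in WT and -0.78 ± 0.31 in KO were not called. The KO value was -0.35 (adjusted p = 0.252) and the WT value passed (0.045) without array 3 of activated KO, and without array 2 of activated KO the KO value was -1.17 and passed (adjusted p = 0.00504). Rasgrp1, the diacylglycerol-driven activator of Ras, fell in KO by 0.61 ± 0.20 on the log2 scale (SE, n = 3 per group; limma, adjusted p = 0.0486), with all 6 activated arrays (10.85 to 11.85) under the native ones (11.89 to 12.16). That call was held in only 1 of 12 fits that left out 1 array (without activated KO array 2), with an adjusted p of up to 0.138, and without array 3 of activated KO the difference was -0.37 (adjusted p = 0.1). In WT Rasgrp1 differed by -0.49 ± 0.20 (adjusted p = 0.107, and 0.0145 without array 3 of activated KO).

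Prkcq and Bcl10, which lead from the receptor to NF-kappaB, fell in both genotypes, while Malt1 was not called. Prkcq (protein kinase C theta) read 12.28, 12.20 and 12.06 in native WT and 11.43, 11.41 and 11.37 in activated WT. In KO it read 12.16, 11.98 and 12.05 in native cells and 11.42, 11.64 and 10.88 in activated cells. The differences were -0.77 ± 0.16 in WT (SE, n = 3 per group; limma, adjusted p = 0.00529) and -0.75 ± 0.16 in KO (adjusted p = 0.00641; -0.54 and 0.00306 without array 3 of activated KO).

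Bcl10 read 9.22, 9.26 and 9.35 in native WT and 8.51, 8.04 and 8.47 in activated WT. On KO arrays it was 9.23, 9.37 and 9.19 in native cells and 8.60, 8.52 and 8.20 in activated cells. The differences were -0.93 ± 0.14 in WT (SE, n = 3 per group; limma, adjusted p = 0.000781) and -0.83 ± 0.14 in KO (adjusted p = 0.00182; -0.71 and 0.0028 without array 3 of activated KO), the smallest adjusted p-values of the 31 genes in each genotype. Activated arrays ran from 8.04 to 8.60 and native arrays from 9.19 to 9.37. Both Prkcq and Bcl10 kept their calls in 12 of 12 fits that left out 1 array, in WT and in KO. Malt1, the protease that Bcl10 binds, differed by 0.12 ± 0.19 in WT and 0.13 ± 0.19 in KO, with 95% intervals from -0.29 to 0.54 in each, and by 0.37 in KO without that array (adjusted p = 0.067).

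**Figure D3:**
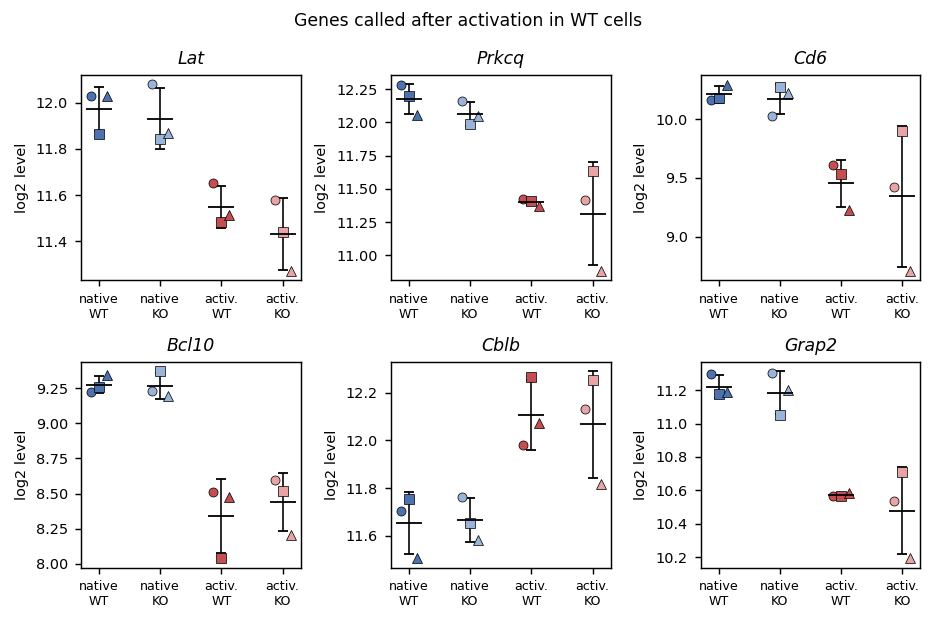
Log2 level (y axis, a separate range in each panel) on each array for the 6 genes called after activation in WT cells, by group (x axis). Circles, squares and triangles are replicates 1, 2 and 3, and the bars are the group mean and SD (n = 3). Lat, Prkcq, Cd6, Bcl10 and Grap2 are lower and Cblb is higher on every activated array than on every native one.

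The NFAT factors, which enter the nucleus on calcium signals, differed among themselves and none was called. Nfatc2 read 9.11 to 9.19 on native WT arrays and 9.31 to 9.55 on activated WT arrays, and 8.97 to 9.20 and 9.25 to 9.51 in KO. Its differences were 0.30 ± 0.11 in WT and 0.31 ± 0.11 in KO (adjusted p = 0.08 and 0.0765), and both passed without array 3 of activated KO (0.0298 and 0.0192). Nfatc3 differed by -0.49 ± 0.16 in WT (adjusted p = 0.056, and 0.0043 without array 3 of activated KO) and by -0.44 ± 0.16 in KO. The KO value of Nfatc3 was -0.24 (adjusted p = 0.189) without that array, and -0.60 (adjusted p = 0.0152) without activated KO array 2. Nfatc1 differed by -0.18 ± 0.24 in WT and -0.42 ± 0.24 in KO, and -0.05 in KO without array 3 of activated KO.

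Of the brakes, the receptor Cd6 fell in both genotypes, the receptor Cd5 fell in KO, and the ubiquitin ligase Cblb rose in WT. Cd5, a surface receptor that dampens the signal, read 10.84, 10.80 and 10.78 in native WT and 10.24, 10.49 and 10.01 in activated WT. In KO it read 10.92, 10.93 and 10.86 in native cells and 9.86, 10.44 and 9.48 in activated cells. It fell in KO by 0.98 ± 0.20 on the log2 scale (SE, n = 3 per group; limma, adjusted p = 0.00474), or by 0.76 (adjusted p = 0.00624) without array 3 of activated KO. In WT the difference was -0.56 ± 0.20 (adjusted p = 0.0721, and 0.0143 without that array).

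Cd6, a related receptor, read 10.16, 10.18 and 10.29 in native WT and 9.61, 9.53 and 9.23 in activated WT. In KO it read 10.03, 10.27 and 10.22 in native cells and 9.42, 9.90 and 8.71 in activated cells. The differences were -0.76 ± 0.23 in WT (limma, adjusted p = 0.0402) and -0.83 ± 0.23 in KO (adjusted p = 0.0266; -0.51 and 0.0324 without array 3 of activated KO). The WT call was held in 2 of 12 fits that left out 1 array, those without activated KO array 2 or 3, with an adjusted p of up to 0.148. The KO call was lost without any 1 of the native KO arrays or activated KO array 1, with an adjusted p of up to 0.0907.

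Cblb, a ubiquitin ligase that raises the need for costimulation, read 11.70, 11.75 and 11.50 in native WT and 11.98, 12.27 and 12.07 in activated WT. Native KO arrays read 11.76, 11.65 and 11.58, and activated KO arrays 12.13, 12.25 and 11.82. Every activated array was above every native one, by the least in KO. The rise in WT was 0.46 ± 0.13 (SE, n = 3 per group; limma, adjusted p = 0.0304), and the KO difference was 0.40 ± 0.13 (adjusted p = 0.0538, or 0.00643 with a difference of 0.53 without array 3 of activated KO). The WT call was lost without any 1 of the native WT arrays or activated WT arrays 2 and 3, with an adjusted p of up to 0.124. The other 4 brakes were not called in either genotype. Ptpn22, a phosphatase that acts with Csk, differed by -0.0067 ± 0.15 in WT and 0.06 ± 0.15 in KO. The phosphatase Ptpn6 differed by -0.02 ± 0.17 and -0.37 ± 0.17, the adaptor Sla2 by -0.26 ± 0.17 and -0.13 ± 0.17, and Ubash3a, a phosphatase family member, by 0.0083 ± 0.27 and -0.18 ± 0.27. In KO these 4 differed by 0.24, -0.19, -0.05 and 0.19 without array 3 of activated KO.

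Sequence is shown for members whose 6 activated arrays all lay on the same side of the 6 native ones, as a view of the DNA before genes that moved together. Of 13 such members 12 had an entry in the RefSeq promoter table (GRCm38.p6), and in 4 of these the stretch lay wholly before the gene's annotated span. Each line gives the 250 bases before the start, 5′ to 3′ on the gene's strand, with capitals for matches on either strand to GGAAG, the core of ETS factor sites, or to CACCTG, an E protein site. Cd8a, Bcl10 and Rasgrp1 were lower and Nfatc2 was higher on all 6 activated arrays.
Cd8a, chr6:71373177-71373426, plus strand: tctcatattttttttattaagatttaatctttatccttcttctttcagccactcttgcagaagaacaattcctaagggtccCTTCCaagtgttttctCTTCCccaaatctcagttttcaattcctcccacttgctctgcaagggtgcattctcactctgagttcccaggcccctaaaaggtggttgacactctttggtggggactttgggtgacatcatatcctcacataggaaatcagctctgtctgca
Bcl10, chr3:145924012-145924261, plus strand: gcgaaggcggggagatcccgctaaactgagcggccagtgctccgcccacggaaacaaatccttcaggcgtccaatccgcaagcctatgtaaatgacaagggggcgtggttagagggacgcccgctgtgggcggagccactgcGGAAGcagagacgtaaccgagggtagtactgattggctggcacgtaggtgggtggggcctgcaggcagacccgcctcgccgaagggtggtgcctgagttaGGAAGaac
Rasgrp1, chr2:117342878-117343127, minus strand: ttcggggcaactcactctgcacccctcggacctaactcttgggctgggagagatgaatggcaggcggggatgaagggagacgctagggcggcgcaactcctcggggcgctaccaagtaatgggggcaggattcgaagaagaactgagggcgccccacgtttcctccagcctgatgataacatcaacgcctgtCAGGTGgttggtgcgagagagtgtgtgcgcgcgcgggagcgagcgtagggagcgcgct
Nfatc2, chr2:168601658-168601907, minus strand: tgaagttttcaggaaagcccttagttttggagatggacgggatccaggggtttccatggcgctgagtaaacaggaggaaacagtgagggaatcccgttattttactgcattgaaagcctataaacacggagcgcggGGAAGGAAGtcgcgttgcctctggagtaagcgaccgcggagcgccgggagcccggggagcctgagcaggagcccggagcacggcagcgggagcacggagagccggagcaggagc
The ETS core was matched in Cd8a, Bcl10 and Nfatc2, at 2 places each, those of Nfatc2 overlapping, and the E protein letters at 1 place in Rasgrp1. Over the same length the ETS core was found in 63.7% of 27018 promoters, so that its presence in a lower or a higher gene is common. The E protein letters were found in 17.1%.

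Related genes were also set against each other on the same array, which removes any shift shared by an array. It does not remove a narrower scale on an array. The pairs were chosen with earlier results of these data known. Bcl10, Lat, Cd247 and Cd8a were called lower on the same arrays, so their ratios are not separate evidence. A log2 ratio between different genes has no meaning as a level here, and only its change is given. For 9 pairs the activated arrays were compared with the native ones by a two-sided exact permutation test within genotype (400 arrangements, smallest possible p = 0.005), adjusted over the 9 pairs, and 5 pairs changed. Bcl10 fell against Malt1 by 1.01 on the log2 scale (-1.06 in WT and -0.95 in KO; exact p = 0.005, adjusted p = 0.009). Its ratio ran from -1.19 to -0.83 on native arrays and from -2.29 to -1.68 on activated arrays. Cd247 fell against Cd3e by 0.62 (-0.51 in WT and -0.73 in KO), and Nfatc1 against Nfatc2 by 0.60 (-0.48 and -0.72), with the same exact p. Lcp2 rose against Lat by 0.55 (0.46 and 0.63), and Cd8b1 against Cd8a by 0.36 (0.28 and 0.44), again at an exact p of 0.005.

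In these 5 pairs no activated array fell within the native range, array 3 of activated KO included, so p was the smallest that the test can give and does not tell the pairs apart. Leaving out 1 array moved the size of the change, to between -1.07 and -0.93 for Bcl10 and Malt1, -0.75 and -0.47 for Cd247 and Cd3e, and -0.71 and -0.45 for Nfatc1 and Nfatc2. Of the other 4 pairs, Cd3g against Cd3d differed by -0.44 in WT and -0.0063 in KO (mean -0.22, exact p = 0.225), and Nfatc1 against Nfatc3 differed by 0.31 and 0.02 (mean 0.16, exact p = 0.135). Both passed without array 3 of activated KO, with means of -0.38 and 0.25 (exact permutation test, adjusted p = 0.0075 and 0.0129), as they did with quantile normalisation (0.045 and 0.0225). Ubash3a against Ptpn22 (-0.11, exact p = 0.465) and Cd6 against Cd5 (-0.02, exact p = 0.805) did not pass, and adjusted p-values were 0.203 to 0.805.

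**Figure D4:**
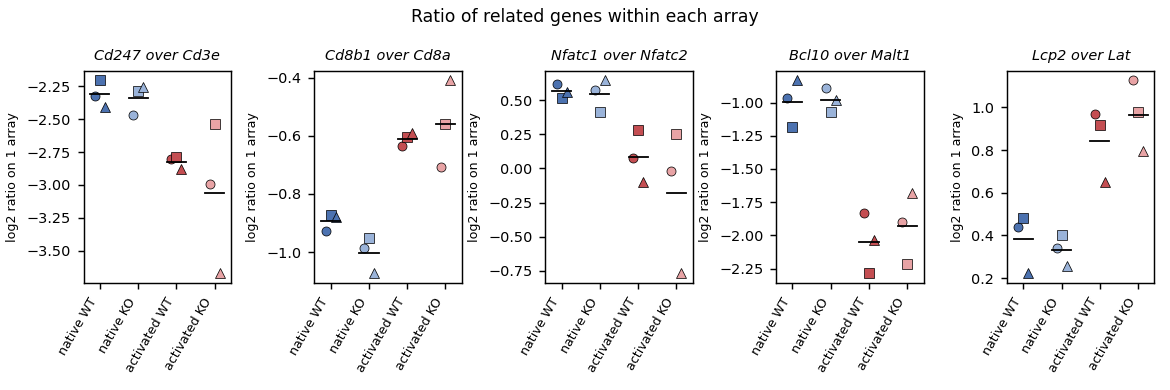
Log2 ratio of 2 related genes on each array (y axis, a separate range in each panel) by group (x axis), for the 5 pairs that passed the exact permutation test. Circles, squares and triangles are replicates 1, 2 and 3, and the line is the group mean. In every panel the 6 activated arrays lie to the same side of all 6 native arrays.

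KO cells were compared with WT cells to ask whether the receptor machinery differed without AIRE. No member was called in native cells, in activated cells or in the interaction of genotype and state, and 0% of all genes were called in each of these comparisons (limma, adjusted p under 0.05). At an unadjusted p under 0.05 there were 0 members in each, against 131, 87 and 86 of all 19938 genes. These counts lie far below the share of 0.05 that this limit gives where no gene differs. The p-values between genotypes thus ran high, and the lack of calls does not show that the genotypes were alike. In native cells the 3 members with the smallest p were Txk, at 0.23 ± 0.20 with a 95% interval from -0.22 to 0.67, Prkcq, at -0.11 ± 0.16 (-0.47 to 0.24), and Csk, at -0.08 ± 0.12 (-0.33 to 0.18). Cd5 was the only member whose 3 native KO arrays (10.86 to 10.93) all lay apart from the 3 native WT arrays (10.78 to 10.84), against 7.04% of all genes, and its difference was 0.10 ± 0.20. These errors and intervals share the spread of all 4 groups and ignore array numbers, so they do not measure the native spread alone. The SD of Cd5 was 0.032 and 0.035 in native WT and KO, and 0.24 and 0.48 in activated WT and KO. The neutrophil marker mean was 8.21 and 7.70 on native KO arrays 1 and 3, higher than on any native WT array, and its part in these values was not tested.

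In activated cells the smallest p-values belonged to Cd8a (-0.43 ± 0.27, 95% interval -1.02 to 0.15), Cd5 (-0.32 ± 0.20, -0.76 to 0.12) and Cd8b1 (-0.38 ± 0.25, -0.92 to 0.15). Without array 3 of activated KO and array 2 of activated WT, the pair of arrays with the highest olfactory receptor medians, these became 0.08, 0.02 and 0.06; without array 3 of activated KO alone they were -0.10, -0.10 and -0.13. A KO and a WT array with the same number in their titles carry 1 experiment number in the descriptions. Within numbers 1, 2 and 3, KO minus WT was -0.24, -0.17 and -0.89 for Cd8a, -0.38, -0.06 and -0.53 for Cd5 and -0.32, -0.13 and -0.71 for Cd8b1. These members were picked by their p-values on the same arrays, so the shared sign is no added evidence. Whether the numbers pair activated arrays was not settled, and the largest value of each member came from number 3. Groups lay apart for 0 members, against 1.75% of all genes. In the interaction the smallest p-values were those of Cd5 (-0.42 ± 0.28, 95% interval -1.04 to 0.20), Ptpn6 (-0.34 ± 0.25, -0.88 to 0.20) and Cd8a (-0.47 ± 0.38, -1.30 to 0.35). The 5 genes called lower in KO but not in WT (Cd8a, Cd247, Cd5, Fyn and Rasgrp1) were not called in the interaction, which tests the difference in their response itself.

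The members also varied between replicates of the activated cells. In native cells the median SD of a member was 0.10 (WT) and 0.11 (KO), and in activated cells it was 0.15 (WT) and 0.39 (KO). Over all genes the medians were 0.10, 0.12, 0.16 and 0.25 in the same order. For 17 of 31 members (54.8%) array 2 was the highest of 3 in both activated groups, against 8.34% of all genes. They included Cd3e, Cd3d, Cd3g, Cd247, Cd8a, Cd8b1, Zap70, Plcg1, Cd5 and Themis. The fall of array 3 of activated KO against the other activated KO arrays was uneven, with a deviation of -1.94 for Themis, -1.93 for Cd3d, -1.09 for Cd247 and -0.18 for Cd3e.

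The rest of the pathway was read from 6 lists of genes outside the 31, counted by the same calls. Of all genes 9.72% were called higher and 10.9% lower in WT, and 8.72% and 11.4% in KO. Without dim genes these shares were 19% and 21% in WT, and 16.9% and 22.1% in KO. In the NF-kappaB branch 10 of 15 measured genes fell and 0 rose in each genotype, with list medians of -0.73 in WT and -0.72 in KO. Tnfaip3 and Nfkbia, which NF-kappaB itself induces and which restrain it, fell by 3.67 ± 0.29 and 3.12 ± 0.21 on the log2 scale in WT, and their KO differences were -3.79 and -3.46. Tnfaip3 read 12.01 to 12.48 on native WT arrays and 8.39 to 8.71 on activated WT arrays. The activation marker Cd69 also averaged more in native than in activated cells, at 12.83 and 10.61 in WT and 12.83 and 10.86 in KO. Il2ra went the other way, from 6.72 to 12.73 in WT and from 7.18 to 12.73 in KO. Whether the native cells were at rest was not tested. In the calcium branch 3 of 16 genes rose and 6 fell in WT, and 1 rose and 6 fell in KO. The calcium channel subunit Orai2 fell by 1.63 ± 0.25 and the calcium release channel Itpr2 fell by 1.73 ± 0.37 in WT, and Rcan3, a calcineurin regulator, rose by 0.80 ± 0.16. Orai3 rose by 0.65 ± 0.20 in WT (adjusted p = 0.0364), a call lost without native KO array 2 (0.0513) or any 1 of 5 WT arrays (up to 0.14), and differed by 0.47 ± 0.20 in KO with no call.

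Among 22 kinases and adaptors beside the 31, 1 rose and 4 fell in WT (9.72% and 10.9% of all genes), and 2 rose and 3 fell in KO (8.72% and 11.4%). Trat1, an adaptor of the receptor complex, differed by -2.90 ± 0.33 in WT and -2.83 in KO, and Pag1, the membrane anchor of Csk, by -1.67 ± 0.28 and -1.88, all called lower. Vav3, a relative of Vav1, rose by 1.17 ± 0.21 and 1.45. In the Ras and MAP kinase branch 2 of 15 rose and 2 fell in WT, and 2 rose and 3 fell in KO, beside the same shares of all genes. The exchange factor Sos1 fell by 1.01 ± 0.16 in WT while its relative Sos2 rose by 0.65 ± 0.18, and the phosphatase Dusp2 fell by 2.31 ± 0.33. Map2k1, the kinase above ERK, rose by 0.71 ± 0.20. The WT calls of Sos2 and Map2k1 were each lost on leaving out any 1 of 4 WT arrays, with adjusted p-values up to 0.0923 and 0.106. Of the 6 measured co-receptors, Icos, a costimulator, rose by 1.36 ± 0.27 in WT and 0.91 in KO, and Cd226, an adhesion receptor, was called lower at -1.52 ± 0.28 and -1.60.

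Of the brakes outside the 31, 8 of 19 rose and 2 fell in WT (9.72% and 10.9% of all genes), and 7 rose and 1 fell in KO (8.72% and 11.4%), with list medians of 0.26 and 0.47. The inhibitory receptor Lag3 rose by 3.56 ± 0.50 in WT, from 5.80 to 6.05 on native arrays to 8.88 to 10.4 on activated arrays, and by 2.42 in KO. The receptor phosphatase Ptprj rose by 2.01 ± 0.38 in WT and 1.40 in KO. The receptor Btla was called lower at -0.86 ± 0.20 and -1.32, and the phosphatase Ptpn12 fell by 0.62 ± 0.14 in WT and differed by -0.31 in KO, which was not called. Across the 6 lists 0 genes were called between KO and WT in either state.

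**Figure D5:**
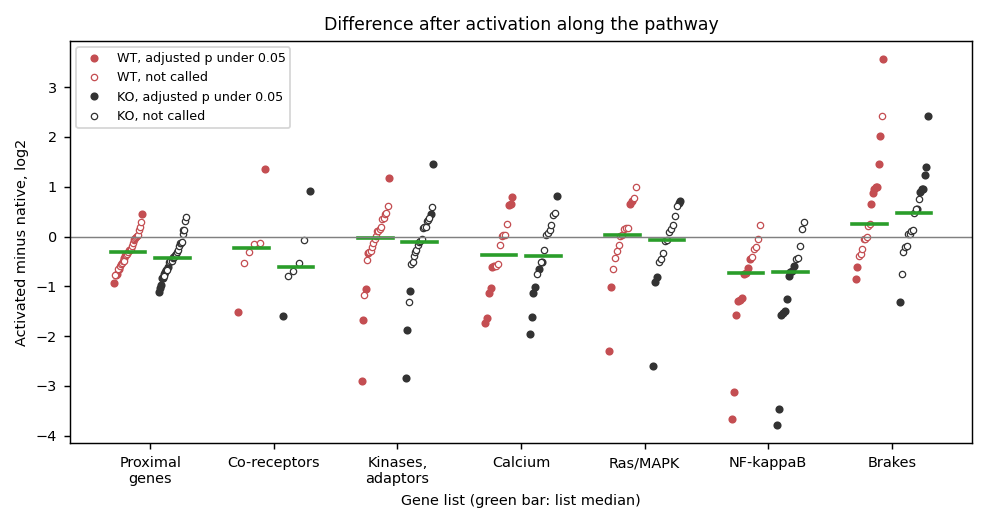
Log2 difference between activated and native cells (y axis) for the 31 proximal genes and the measured genes of 6 other pathway lists (x axis), in WT (red) and KO (black). Filled points passed an adjusted p of 0.05, points within a list are ordered by value, and green bars are list medians. The NF-kappaB list has the lowest medians in WT and KO, at -0.73 and -0.72, and the brakes the highest, at 0.26 and 0.47.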

How the data were processed

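Per the labels' protocols, RNA was made into biotin-labelled DNA for Affymetrix whole-transcript arrays. The authors deposited log2 values for 35556 rows on 12 arrays; the submitters' processing notes name Partek and RMA, without versions or options. RMA compresses differences near background, and aligning arrays hides a shift shared by most genes. Row names came from the platform's annotation, brought up to the symbols of GRCm38.p6: 21789 rows had 1 symbol, 1621 several and 12146 none. The brightest row per gene was kept, leaving 19938 genes, with no filter on dim genes. Group means were fitted with limma 3.58.1 (R 4.3.3, lmFit and eBayes) over all 12 arrays; errors are standard errors of that fit. The fit was tested on simulated data. Arrays have no read depth, and their number, 3 per group, limits the precision.

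The members, lists, pairs and rules were chosen with earlier results of these data known. The rule named all members on activation, the 3 smallest p-values where no member was called between genotypes, and the 2 largest called rises and falls of each pathway list in WT whose groups did not overlap. Adjusted p-values are those of limma with the Benjamini-Hochberg adjustment unless an exact test is named. Alternatives changed the scaling, filter, row rule, moderation, arrays in the fit, array weights, threshold and replicate block, and left out each array; leaving out a pair of arrays was added after seeing the data. Native WT and KO arrays with the same number in their titles deviated together (r = 0.58, 0.40 and 0.16 over genes). The native numbers were thus taken as pairs. Activated WT and KO arrays with the same number gave r = 0.69, -0.02 and -0.01, though each such pair also carries 1 experiment number in the descriptions. These values come from groups of 3 that include array 3 of activated KO, so they cannot show that activated arrays were unpaired. Lck, and the planned ratio of Fyn to Lck, were not analysed here.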

Additional observations from a re-analysis of the deposited data

How the results depend on the processing

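Across all alternatives 0 members were called between KO and WT in native cells, in activated cells or in the interaction. The counts of members called lower in WT (5 as reported) and KO (10) and higher in WT (1) and KO (0) moved as follows. With the 6 arrays of each comparison alone, 13 were lower in WT (14.3% of all genes) and 5 in KO (6.99%). With array weights 17 (18%) and 14 (17.1%) were lower, and 2 (WT, 16.8%) and 3 (KO, 17.6%) higher. With quantile normalisation 9 (10.3%) and 11 (10.7%) were lower, and 2 (14.6%) and 2 (13.3%) higher. With median centring 3 (8.01%) and 7 (8.58%) were lower, the KO calls of Fyn, Cd6 and Rasgrp1 being lost, and 1 was higher in KO (9.48%). These scalings moved the median of all genes by under 0.1. Without dim genes 8 (21% of 10545 genes) and 11 (22.1%) were lower. With trend and robust moderation 6 (10.3%) and 11 (10.7%) were lower and 1 higher in KO (8.46%), and with a 1.5-fold minimum 4 (8.33%) and 9 (9.08%) were lower and 0 higher in WT (8.23%). Adjusting over all rows of the table left 5 (10.4%) and 9 (11%) lower. With the title number as a replicate block, 9 (12%) and 12 (12.7%) were lower and 1 higher in KO (9.48%), and the block changed no call between KO and WT. No experiment number in the descriptions holds both native and activated arrays, so this block is not a known pairing of the states. Activated arrays of 1 number did not all deviate together. Without array 3 of activated KO and array 2 of activated WT, an alternative added after seeing the data, 16 (16.1%) and 10 (13.4%) were lower, and 2 (WT, 16.6%) and 2 (KO, 15.7%) higher. The 5 genes reported lower in WT were among those called in each setting named here except median centring, which kept 3, and the 1.5-fold minimum, which kept 4. Leaving out 1 array gave 3 to 15 lower (7.22% to 16.1% of all genes) and 0 to 2 higher (6.77% to 13.3%) in WT. In KO it gave 6 to 15 lower (7.7% to 13.5%) and 0 to 2 higher (6.13% to 13.4%). The cause of these shifts was not tested.

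Signs turned only for values that were not called. In WT, median centring turned Ptpn22 (0.0621), Ptpn6 (0.0445) and Csk (0.0148), quantile normalisation Zap70 (0.0067), Lcp2 (-0.0076) and Ptpn6 (0.0791), and array weights Ptpn6 (0.0128) and Ubash3a (-0.0853). In KO array weights turned Cd3d (0.0624) and Ubash3a (0.15). Without array 3 of activated KO and array 2 of activated WT, Ptpn6 (0.0349) and Ubash3a (-0.14) turned in WT; Cd3d (0.14), Zap70 (0.0787), Themis (0.16), Ubash3a (0.19) and Csk (0.0011) in KO; Cd8a (0.0795), Cd5 (0.0243) and Cd8b1 (0.059) between activated KO and WT; and Cd8a in the interaction (0.0395). Leaving out 1 array, the WT range was -0.0724 to 0.155 for Lcp2, -0.44 to 0.0404 for Themis, -0.0794 to 0.0439 for Ptpn22, -0.0847 to 0.051 for Ptpn6 and -0.14 to 0.155 for Ubash3a. The KO range was -0.92 to 0.14 for Cd3d, -0.31 to 0.0787 for Zap70, -0.0212 to 0.30 for Lcp2, -1.09 to 0.16 for Themis, -0.0552 to 0.37 for Malt1, -0.0833 to 0.24 for Ptpn22, -0.23 to 0.0411 for Sla2, -0.45 to 0.19 for Ubash3a and -0.22 to 0.0011 for Csk. The ratio of Cd6 to Cd5 ran from -0.0641 to 0.0242, and was 0.0516 with quantile normalisation. Cd3g against Cd3d and Nfatc1 against Nfatc3 passed without array 3 of activated KO and with quantile normalisation. The 5 pairs that passed did so at the smallest p the arrangements allow, so their passing again says nothing of stability. No read depth applies, and the number of arrays limits what could be called.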

Other observations

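Short motif letters were also counted in the 250 bases before the start of 27 members with an entry in the RefSeq promoter table (GRCm38.p6), on both strands, beside 27018 promoters in all. The E protein site CACCTG was found in 10 of the 27 (37.0%, against 17.1% of all): Cd3d, Cd3g, Cd247, Zap70, Plcg1, Vav1, Cd5, Ptpn6, Rasgrp1 and Csk. The TCF and LEF site CTTTGA was found in 7 (25.9%, against 14.1%): Cd3d, Fyn, Zap70, Lcp2, Txk, Ptprc and Nfatc3. The ETS core GGAAG was found in 20 (74.1%, against 63.7%). For RUNX, TGNGGT was searched first and was found in 13 (48.1%, against 40.0%). The stricter TGTGGT, chosen after that result was seen, was found in 1, Sla2 (3.7%, against 14.2%). Of the 9 with an entry among members called lower in KO, 3 held the E protein letters and 6 the ETS core. These are counts of letters, with no test. In many entries the start lies inside the gene's annotated span, so that the stretch is not always the outermost promoter.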
